A study of Mus musculus with 2 samples.

Results

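Intestinal epithelium genes are genes that the lining of the gut is known to use, and they were followed here in the liver and adipose RNA of mice on a high-fat diet and on a normal diet. The set holds 39 genes of the 20886 that the arrays' probes name, in 6 classes: 9 brush border enzymes and transporters of enterocytes, 11 other enterocyte genes, 2 intestinal transcription factors, 9 goblet cell and mucus genes, 3 enteroendocrine genes and 5 general epithelial genes. Members were found by gene symbol, and all 39 had a probe on both arrays, 41 probes in all. They were chosen with earlier results of these arrays known, mainly their ratios on the adipose array, as a gauge of intestinal RNA in the adipose pools. Their adipose ratios are therefore a description, and no count of them is evidence of its own direction.

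The study fed male C57BL/6J wild-type mice a high-fat diet or a normal diet for 4 weeks. RNA of 10 livers and of 10 adipose tissues was pooled by diet, and each tissue was measured on 1 Agilent array of 2 channels, with the high-fat pool in red (Cy5) and the normal-diet pool in green (Cy3). No mouse carried an engineered allele, per the labels. The fat depot, the size of each pool and any sharing of mice between the tissues are not given in the sources used here. Arrays were neither repeated nor dye-swapped, so no value below has a spread between animals, no test was possible, and a probe's dye effect cannot be told apart from the diet. Slide and scan differed between the tissues and cannot be told apart from them. In pooled bulk RNA, fewer cells of a type and less RNA per cell cannot be told apart either.

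A ratio below is the log2 of the high-fat signal divided by the normal-diet signal after loess normalization, and a level is the log2 brightness of one channel after both arrays were given the same distribution. A gene had a ratio only where its probe stood well above background in the red and in the green channel, and a difference of 2-fold or more, either way, counted as higher or lower. Ratios were available for 14315 genes in adipose tissue and 13642 in liver, with medians of -0.01 and 0.01 over all genes and a median scanner error of 0.21 on either array. The adipose array was brighter in red: its median spot signal was 274 in the high-fat channel, against 97 in the normal-diet channel, over local backgrounds of 52.5 and 28. On the liver array it was 127 in the high-fat channel, against 93 in the normal-diet channel, over 48 and 28. The tissues carried their own markers. The 14 adipocyte genes had median levels of 14.80 in the high-fat pool and 14.73 in the normal-diet pool on the adipose array, and the 15 hepatocyte genes had 16.88 in the high-fat pool and 16.53 in the normal-diet pool on the liver array.

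The intestinal epithelium is a single layer of cells that renews itself from crypts. Most of its cells are enterocytes, whose brush border of microvilli carries the enzymes and transporters that finish digestion and take up nutrients. Goblet cells secrete the mucus gel, enteroendocrine cells release hormones into the blood, and Paneth cells at the crypt base of the small intestine secrete antimicrobial peptides. The homeobox factors CDX1 and CDX2 set intestinal identity and, with HNF1, HNF4 and GATA factors, act at many enterocyte promoters. Adipose tissue and liver have no such lining, although some of these genes are also used in other epithelia and in hepatocytes.

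Promoters of 4 members are shown because they are of genes of different classes that were all brighter in the high-fat adipose pool, and because these windows hold the letters of the gut factors. Each runs 250 bases before to 50 bases after the annotated start, from RefSeq on GRCm38.p6, read along the gene's own strand. The windows are chr3:72967814-72968113 (minus strand) for Sis, chr15:78855480-78855779 (minus strand) for Lgals2, chr5:147307200-147307499 (minus strand) for Cdx2 and chr7:141690090-141690389 (plus strand) for Muc2. Capitals mark matches, on either strand, to the letters of 4 gut factor families or of a TATA box. The search for CDX binding letters used CAATAAA. For the HNF1 proteins the search used GTTAAT, and for HNF4 proteins it used CAAAGT. The letters for GATA family members were AGATAA. The letters searched for the TATA element were TATAAA.
Sis: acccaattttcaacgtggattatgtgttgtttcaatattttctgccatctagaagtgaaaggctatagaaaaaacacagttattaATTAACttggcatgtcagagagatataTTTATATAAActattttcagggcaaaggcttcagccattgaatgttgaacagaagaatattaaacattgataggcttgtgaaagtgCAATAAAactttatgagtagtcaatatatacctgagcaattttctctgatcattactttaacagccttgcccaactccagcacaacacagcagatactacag
Lgals2: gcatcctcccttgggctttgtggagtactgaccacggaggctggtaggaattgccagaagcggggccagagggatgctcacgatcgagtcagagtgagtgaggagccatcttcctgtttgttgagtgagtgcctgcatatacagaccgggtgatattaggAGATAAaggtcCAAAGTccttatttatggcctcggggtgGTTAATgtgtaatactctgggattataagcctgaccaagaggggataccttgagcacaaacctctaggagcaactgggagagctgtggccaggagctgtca
Cdx2: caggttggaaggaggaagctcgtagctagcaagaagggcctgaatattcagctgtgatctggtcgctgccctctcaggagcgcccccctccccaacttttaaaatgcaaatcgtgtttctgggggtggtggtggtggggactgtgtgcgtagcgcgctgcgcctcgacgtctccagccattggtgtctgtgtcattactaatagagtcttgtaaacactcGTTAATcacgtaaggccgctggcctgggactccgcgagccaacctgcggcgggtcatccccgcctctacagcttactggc
Muc2: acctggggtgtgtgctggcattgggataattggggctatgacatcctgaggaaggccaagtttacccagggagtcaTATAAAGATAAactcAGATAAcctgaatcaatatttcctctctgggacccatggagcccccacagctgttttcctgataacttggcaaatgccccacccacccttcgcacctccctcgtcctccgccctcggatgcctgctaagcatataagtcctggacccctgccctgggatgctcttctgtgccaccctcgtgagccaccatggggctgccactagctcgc
In the Sis window the CDX letters began 52 bases before the start and the HNF1 letters lay 165 bases before it, on the reverse strand. The TATA letters of Sis, 134 and 138 bases before the start on opposite strands, overlap each other. Lgals2 held the letters for GATA, HNF4 and HNF1 at 90, 79 and 51 bases before its start. In the Muc2 window the TATA letters overlap one of its 2 GATA matches by 1 base. RefSeq windows were at hand for 28 members (30 windows). The GATA letters were in 33.3% of these windows and in 11.2% of all 32851 promoters of the table, the HNF1 letters in 20.0% and 7.1%, the HNF4 letters in 23.3% and 14.4%, the TATA letters in 23.3% and 13.6%, and the CDX letters in 6.67% (Clec2h and Sis) and 4.6%. These are matches of letters, not measured sites. Mep1b, Slc13a1, Cdh17, Cdx1, Tff3, Dmbt1, Spink1, Clca1, Zg16, Krt19 and Cdh1 are named only.

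On the adipose array every member was brighter in the high-fat pool. All 39 were well above background in the high-fat channel and 35 in the normal-diet channel as well. Those 35 had a ratio, and all 35 were at least 2-fold higher and none lower, while 4.23% of all genes with a ratio were higher and 5.13% lower; the members were chosen on this contrast, so nothing is read from that difference. Their ratios had a median of 3.46 (11.0-fold) and ran from 1.10 to 5.76. Of the 35, 33 were at least 4-fold higher, 20 at least 8-fold, 9 at least 16-fold and 5 at least 32-fold. The members took 11 of the 50 highest places among all genes on the array, 20 of the first 100 and 32 of the first 200. Together their 41 probes took 0.814% of the background-subtracted signal of the high-fat adipose channel, against 0.0799% in the normal-diet adipose channel.

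**Figure D1:**
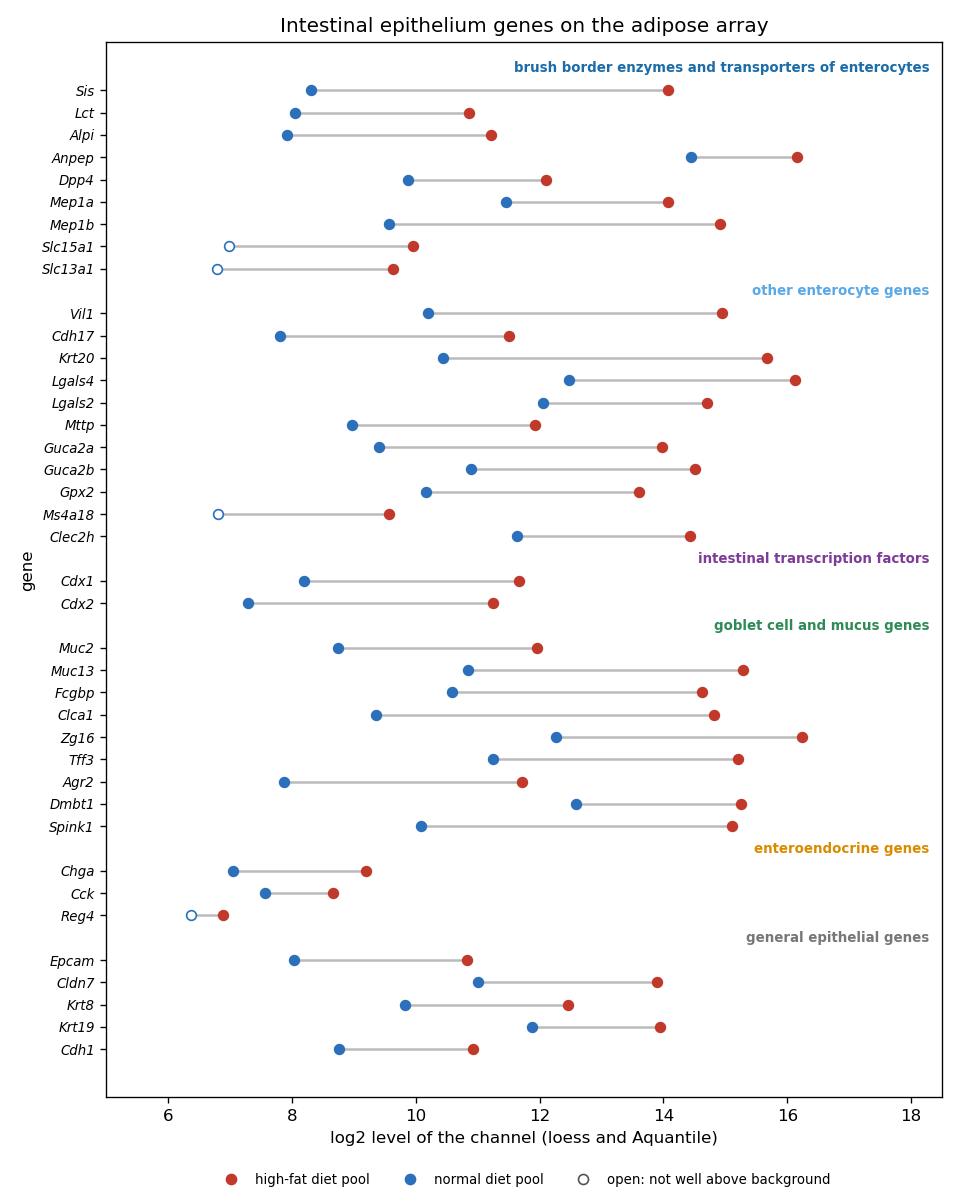
Log2 level (x axis) of each of the 39 genes (rows, by class) in the high-fat pool (red) and the normal-diet pool (blue) on the adipose array; open points were not well above background. The red point lies to the right of the blue one in every row, and 4 genes (Slc15a1, Slc13a1, Ms4a18 and Reg4) have an open blue point.

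Brush border enzymes and transporters spanned nearly the whole range, from 1.70 to 5.76 with a median of 2.81 over 7 of the 9 genes. Sis encodes sucrase-isomaltase, which splits sucrose and the products of starch digestion, and it had a level of 14.07 in the high-fat pool, against 8.30 in the normal-diet pool, the highest ratio of the set at 5.76 (54.3-fold, scanner error 0.66). Its median spot signal was 40078 in the high-fat channel and 137 in the normal-diet channel. The raw signals lie further apart than the ratio, since the background correction adds an offset of 50 to both channels and loess takes out the array's general excess of red. The scanner software's own ratio for Sis was 6.57. Mep1b, the beta subunit of the metalloprotease meprin, stood at 14.92 in the high-fat pool, against 9.56 in the normal-diet pool, a ratio of 5.36. Its partner Mep1a, the alpha subunit, differed less, with 14.08 in the high-fat pool, against 11.46 in the normal-diet pool (2.62). The subunits of one enzyme thus differed between the diets by unequal amounts, each on 1 probe.

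The other brush border enzymes had smaller ratios. Alpi, intestinal alkaline phosphatase, had a level of 11.21 in the high-fat pool, against 7.92 in the normal-diet pool (3.29). Lct, the lactase that splits milk sugar, had 10.86 in the high-fat pool and 8.05 in the normal-diet pool (2.81). The lowest level above background in the normal-diet channel was 6.26, so both rest on weak normal-diet signals. Dpp4 is a dipeptidyl peptidase that inactivates incretin hormones and is also found outside the gut. Its level was 12.10 in the high-fat pool, against 9.87 in the normal-diet pool (2.23). Anpep, aminopeptidase N, had 16.16 in the high-fat pool and 14.45 in the normal-diet pool, a ratio of 1.70 (3.26-fold). Anpep had the smallest ratio of its class. The enzyme is also made by other cell types, among them myeloid cells and stromal cells.

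Slc15a1, the transporter of di- and tripeptides, and Slc13a1, a sodium-sulfate cotransporter, were above background in the high-fat pool alone. Slc15a1 had median signals of 2403 in the high-fat channel and 65 in the normal-diet channel, which bounds it at least 7.85-fold higher. Slc13a1 had 1894 in the high-fat channel and 62 in the normal-diet channel and was at least 7.18-fold higher. Such a bound sets the bright channel over the dim channel's own level or the lowest level above background there, whichever is higher.

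The 11 other enterocyte genes had a median ratio of 3.63, from 2.64 to 5.22 over 10 of them. Krt20, a keratin of mature enterocytes, had levels of 15.67 in the high-fat pool and 10.44 in the normal-diet pool (5.22, 37.3-fold). Vil1, the actin-bundling villin of microvilli, had 14.95 in the high-fat pool, against 10.20 in the normal-diet pool (4.75). Cdh17, a cadherin of the intestinal epithelium, had 11.50 in the high-fat pool, against 7.81 in the normal-diet pool (3.70). These structural genes lay above the median of the whole set.

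Guca2a and Guca2b encode guanylin and uroguanylin, peptides that the epithelium secretes to stimulate fluid and salt secretion. Guca2a had a level of 13.98 in the high-fat pool, against 9.41 in the normal-diet pool (4.57). Guca2b had 14.51 in the high-fat pool and 10.89 in the normal-diet pool (3.62). Gpx2, the gastrointestinal glutathione peroxidase, had 13.61 in the high-fat pool and 10.16 in the normal-diet pool (3.46). Gpx2 was the middle member of the ranking by ratio.

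The galectins differed from each other. Lgals4, a galectin of apical membrane rafts, was the only member with several probes, and its 3 probes gave ratios of 3.77, 3.69 and 3.45. Over them its level was 16.12 in the high-fat pool, against 12.48 in the normal-diet pool (3.64). Lgals2, galectin 2, had 14.70 in the high-fat pool, against 12.06 in the normal-diet pool (2.64). The 3 probes of Lgals4 were closer to each other than Lgals4 was to Lgals2. Mttp, which loads lipid onto apolipoprotein B for chylomicrons and, in liver, for very-low-density lipoproteins, had 11.92 in the high-fat pool and 8.97 in the normal-diet pool (2.94). Clec2h, a C-type lectin-like protein, had 14.43 in the high-fat pool and 11.64 in the normal-diet pool (2.79). Ms4a18 was above background in the high-fat pool alone, with signals of 1807 in the high-fat channel and 58 in the normal-diet channel, at least 6.81-fold higher.

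Both caudal-type homeobox factors were measured in both pools. Cdx2 had a level of 11.24 in the high-fat pool, against 7.28 in the normal-diet pool, a ratio of 3.96 (15.6-fold). Cdx1 had 11.67 in the high-fat pool, against 8.20 in the normal-diet pool, a ratio of 3.47 (11.1-fold). Their normal-diet signals of 77 and 139 were low, over a background near 28, and their ratios rest on that correction: the scanner software's own ratios were 5.47 for Cdx2 and 4.03 for Cdx1.

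Goblet cell and mucus genes had a median ratio of 3.97, from 2.66 to 5.46 over all 9. Clca1, a metalloprotease that processes mucus, had the highest of the class, with a level of 14.81 in the high-fat pool, against 9.35 in the normal-diet pool (5.46, 43.9-fold). Muc2, the gel-forming mucin of the intestine, had 11.96 in the high-fat pool, against 8.74 in the normal-diet pool (3.22, 9.33-fold). Muc13, a membrane-bound mucin that enterocytes carry too, had 15.29 in the high-fat pool and 10.84 in the normal-diet pool (4.45). The gel-forming and the membrane-bound mucin were both called higher. Fcgbp, a large protein of the mucus gel, had 14.63 in the high-fat pool, against 10.58 in the normal-diet pool (4.05). Zg16, a lectin of secretory granules, had 16.24 in the high-fat pool, against 12.27 in the normal-diet pool (3.97).

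Tff3, a trefoil peptide co-secreted with mucins, had levels of 15.20 in the high-fat pool and 11.24 in the normal-diet pool (3.95). Agr2, a disulfide isomerase needed to fold Muc2, had 11.72 in the high-fat pool and 7.87 in the normal-diet pool (3.85). Both ratios lay close to that of Zg16. Spink1 and Dmbt1 were placed in this class as secreted products but are not goblet markers alone: Spink1 is a trypsin inhibitor best known from the exocrine pancreas, and Dmbt1 a scavenger receptor protein of mucosal surfaces. Spink1 had 15.10 in the high-fat pool, against 10.09 in the normal-diet pool (5.01, 32.3-fold). Dmbt1 had 15.25 in the high-fat pool, against 12.59 in the normal-diet pool (2.66).

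The enteroendocrine genes had a median of 1.63 over 2 of the 3 genes, and weak signals. Chga, chromogranin A of hormone granules, had signals of 1386 in the high-fat channel and 73.5 in the normal-diet channel, with a level of 9.19 in the high-fat pool, against 7.04 in the normal-diet pool (2.16, 4.46-fold). Cck, the hormone cholecystokinin, had signals of 956 in the high-fat channel and 106 in the normal-diet channel, with a level of 8.66 in the high-fat pool, against 7.56 in the normal-diet pool. Its ratio of 1.10 (2.15-fold) was the one nearest the 2-fold threshold, but with the software's own ratio, at 1.85, it lay above Anpep (1.69). Reg4, a secreted lectin of enteroendocrine and deep crypt cells, was above background only in the high-fat channel at a signal of 178, against 61 in the normal-diet channel, at least 1.42-fold higher, a bound that does not reach 2-fold.

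The general epithelial genes, which many epithelia share, had a narrow range of 2.07 to 2.89 with a median of 2.63. Cldn7, a tight junction claudin, had levels of 13.89 in the high-fat pool and 11.00 in the normal-diet pool (2.89). Epcam, an epithelial adhesion molecule, had 10.83 in the high-fat pool, against 8.03 in the normal-diet pool (2.80). Krt8, a keratin of simple epithelia, had 12.46 in the high-fat pool and 9.82 in the normal-diet pool (2.63). All 3 lay below the median of the set. Krt19, another such keratin, had 13.95 in the high-fat pool, against 11.88 in the normal-diet pool (2.07). Cdh1, E-cadherin, had 10.93 in the high-fat pool, against 8.76 in the normal-diet pool (2.17). The probe of Cdh1 is printed many times on the array and gives the spread between spots of a single probe, not between labellings or hybridizations. Its 9 usable spots had ratios of 2.08 to 2.30. Their signals ran from 4095 to 5761.5 in the high-fat channel and from 183 to 240 in the normal-diet channel.

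**Figure D2:**
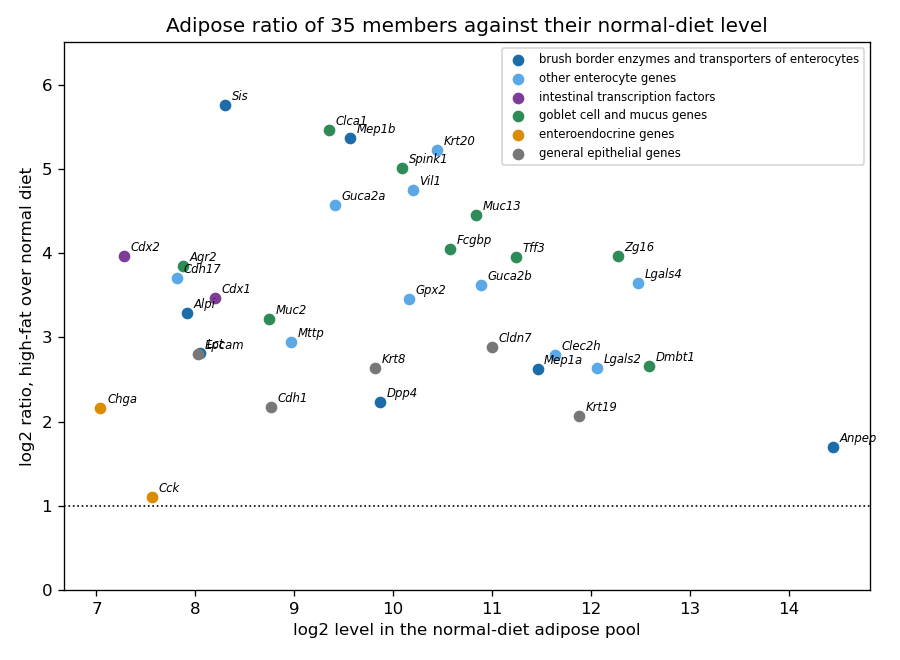
Log2 ratio on the adipose array (y axis, high-fat over normal diet) of the 35 genes with a ratio, against their log2 level in the normal-diet adipose pool (x axis), coloured by class; the dotted line is 2-fold. Ratios of 5.01 or more belong to Sis, Clca1, Mep1b, Krt20 and Spink1, all at normal-diet levels of 8.30 to 10.44, and Anpep, at a normal-diet level of 14.45, is at 1.70.

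The ratio did not run one way with the normal-diet level. The 12 members with normal-diet adipose levels of 7.04 to 8.76 had a median ratio of 3.25, the 12 with levels of 8.97 to 10.84 one of 4.51, and the 11 with levels of 10.89 to 14.45 one of 2.79. Among the dimmest, the software's ratios, which carry no added offset, were larger, for example 3.97 for Chga, 5.47 for Cdx2 and 4.86 for Agr2. The members shared a direction but not a common fold: ratios ran from 2.15-fold for Cck to 54.3-fold for Sis, and the scanner errors of the members ran from 0.26 for Anpep to 0.66 for Sis.

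In liver the same genes were mostly dim or level between the diets. Of the 39, 17 were above background in both channels, 7 only in the high-fat channel and 15 in neither. The 17 with a ratio had a median of 0.25, from -0.29 to 2.98. Of them 3 were at least 2-fold higher and none lower, beside 0.491% of all liver genes higher and 0.579% lower. The liver values were known as well when the members were chosen, so these counts too are a description. The members' probes took 0.0401% of the signal in the high-fat liver channel, against 0.0501% in the normal-diet liver channel.

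Dmbt1 had liver signals of 2106 in the high-fat channel and 142 in the normal-diet channel, a ratio of 2.98 (7.86-fold). Tff3 had signals of 3606 in the high-fat channel and 372 in the normal-diet channel, a ratio of 2.40 (5.26-fold). These were the second and the third highest ratios among all liver genes. Clec2h, with signals of 359 in the high-fat channel and 107 in the normal-diet channel, stood at 1.00 (2.01-fold), just inside the threshold. Among members with a ratio, the nearest outside it was Guca2b at 0.63, with signals of 135 in the high-fat channel and 67 in the normal-diet channel. With every local background kept as deposited, Dmbt1 was at 0.95 and Clec2h at 0.11, so 1 member, Tff3, was called, at 1.27; with the software's own ratio 6 were, Guca2b (1.58), Muc13 (1.07) and Spink1 (1.06) being added. Bile duct cells are another epithelium of the liver; of 11 bile duct genes, 10 had a liver ratio, with a median of 0.21 and none called, and their part in these 3 ratios was not tested.

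Several members that hepatocytes also use were well above background in liver and level between the diets. Anpep, which lines the bile canaliculi, had levels of 13.41 in the high-fat pool and 13.35 in the normal-diet pool (0.06). Mttp had 12.79 in the high-fat pool and 12.85 in the normal-diet pool (-0.06). Krt8 had 11.63 in the high-fat pool and 11.61 in the normal-diet pool (0.02), and Dpp4 had 11.43 in the high-fat pool and 11.42 in the normal-diet pool (0.01). In adipose tissue the same 4 had ratios of 1.70 (Anpep), 2.94 (Mttp), 2.63 (Krt8) and 2.23 (Dpp4). Lgals4 was also well above background in liver, at 12.59 in the high-fat pool and 12.88 in the normal-diet pool, and its ratio of -0.29 was the lowest there. Cdh1 stood at -0.21, with its 9 spots between -0.30 and -0.15.

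The other liver ratios were those of Spink1 (0.56), Lgals2 (0.43), Muc13 (0.36), Gpx2 (0.30), Krt19 (0.25), Cldn7 (0.10) and Guca2a (0.00). The 7 genes above background only in the high-fat liver channel had small bounds, from at least 1.17-fold for Mep1b and 1.23-fold for Sis up to 1.57-fold for Zg16 and 1.80-fold for Krt20. Lct (1.40), Vil1 (1.26) and Fcgbp (1.22) lay between, and none reached 2-fold. The signals behind them were near background, such as 78 in the high-fat channel and 54 in the normal-diet channel for Sis. Both Cdx factors, all 3 enteroendocrine genes, Muc2, Clca1, Agr2, Alpi, Mep1a, Slc15a1, Slc13a1, Cdh17, Ms4a18 and Epcam were not well above background in either liver channel.

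**Figure D3:**
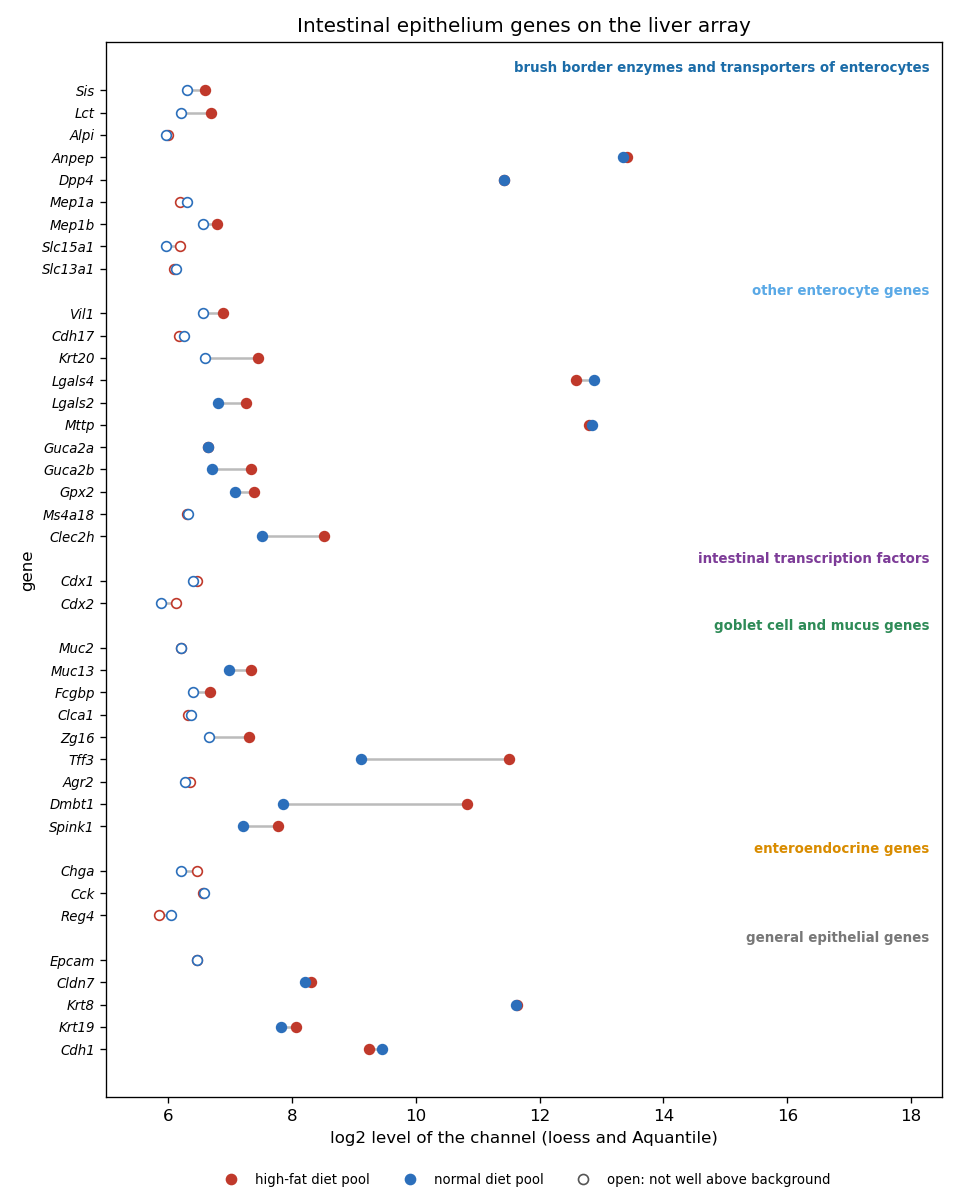
Log2 level (x axis) of each of the 39 genes (rows, by class) in the high-fat pool (red) and the normal-diet pool (blue) on the liver array; open points were not well above background. Dmbt1 and Tff3 stand out with red points at 10.83 and 11.50, against blue points at 7.86 and 9.11, and most other pairs lie close together or are open.

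Between the arrays, levels were set against each other where a member was well above background on both. In the high-fat channels 15 of 39 members were not above background in liver, and of the 24 above it on both arrays 23 had a higher level on the adipose array, with a median difference of 6.08. Zg16 had the highest of these, 8.94, and Mttp the lowest, -0.87. In the normal-diet channels 22 of 39 were not above background in liver, and of the 17 above it on both arrays 12 had a higher level on the adipose array, with a median of 2.79, from -3.88 for Mttp to 5.24 for Lgals2. Cdh1, Dpp4, Krt8, Lgals4 and Mttp were brighter in normal-diet liver. Over all 39, with dim probes at their measured level, the medians were 5.33 for the high-fat channels and 1.99 for the normal-diet channels, and 5.19 and 1.80 with each channel scaled by its 75th percentile. A difference against a dim liver probe is one against background, so those medians are not levels of expression. Members above background in both liver channels had a median adipose ratio of 2.89 (17 genes, 1.70 to 5.01), those above it only in the high-fat liver channel one of 4.75 (7 genes, 2.81 to 5.76), and those in neither one of 3.29 (11 genes with an adipose ratio, 1.10 to 5.46).

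**Figure D4:**
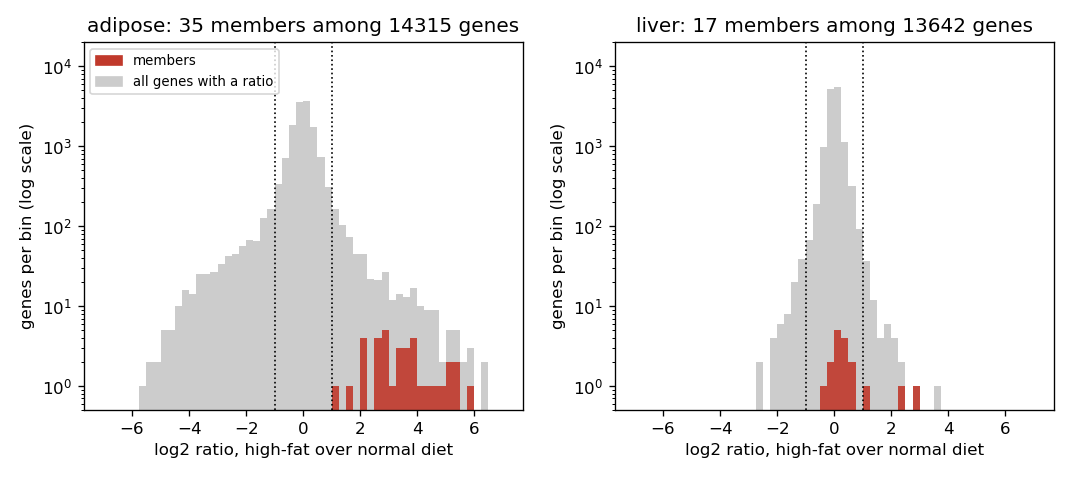
Number of genes per bin (y axis, log scale) by log2 ratio (x axis, high-fat over normal diet) for all genes with a ratio (grey) and the intestinal epithelium genes (red), on the adipose array (left) and the liver array (right); dotted lines are 2-fold. The 35 genes lie between 1.10 and 5.76 on the adipose array, and 14 of 17 lie within the dotted lines on the liver array.

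Other gut genes, not in the set, were taken from 9 lists of cell types and segments. On the adipose array 27 of 33 other enterocyte genes with a ratio were at least 2-fold higher and 2 lower, with a median of 3.35. Fabp2, the intestinal fatty acid binding protein, was at 6.42 (levels of 17.71 in the high-fat pool and 11.29 in the normal-diet pool) and Myo1a, the brush border myosin, at 4.56. Of the 6 that were not higher, Fabp1 (-1.57) and Apoc3 (-1.45) were lower, and Dgat1 (0.83), Slc2a2 (0.70), Slc46a1 (0.09) and Cyp2b10 (-0.19) stayed under 2-fold. Fabp1 and Apoc3 are not enterocyte genes alone: their levels in the high-fat liver pool were 17.38 and 17.21. Fabp2 was bright there too, at 15.5, but higher in adipose tissue. The part of hepatocyte RNA in these adipose ratios was not tested. Of 5 ileal genes, 4 were higher (median 3.26), among them Fabp6, the ileal bile acid binding protein, at 5.23. Cubn, the cubilin receptor and a gene of both lists, was at 5.14 on its measured probes. Those had levels of 13.51 in the high-fat pool and 8.38 in the normal-diet pool. Over all Cubn probes the levels were 10.59 and 7.36, a smaller difference. All 12 Paneth cell genes on the array were higher (median 4.29), led by Reg3b, an antimicrobial lectin, at 6.36 and the defensins Defa23 at 5.80 and Defa3 at 5.72. Defensin probes can bind each other's transcripts, so those values may not be separate.

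Further gut lists had smaller medians. Of 15 intestinal transcription factors beyond Cdx1 and Cdx2, 8 were higher and none lower (median 1.56), with Isx, a homeobox factor of the intestine, at 4.04, Klf5, a factor of crypt cells, at 2.94 and Spdef, a goblet cell factor, at 2.62. Of 7 further enteroendocrine genes, 4 were higher (median 1.11), with secretin (Sct) at 3.34, neurotensin (Nts) at 2.90 and chromogranin B (Chgb) at 1.73, and 9 more were above background only in the high-fat channel. None of 9 stem cell genes was called in either direction (median 0.20, Ascl2 at 0.88), and neither was any of 3 tuft cell genes (median 0.21). Of 4 colon genes none was higher and 1 lower, the water channel Aqp8 at -1.16, with 4 more above background only in the high-fat channel. Of 4 stomach genes, Lipf, gastric lipase, was higher (1.58) and the trefoil peptide Tff2 lower (-2.95). Tff2 had a level of 5.87 in the high-fat pool, against 8.82 in the normal-diet pool. The size of its ratio rests on a high-fat signal near background, since the lowest level above background in that channel was 5.66. Tuft, colon and stomach genes were often dim: 3 of 8, 4 of 9 and 4 of 12 on the array had a ratio, so differences in the rest could be missed.

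**Figure D5:**
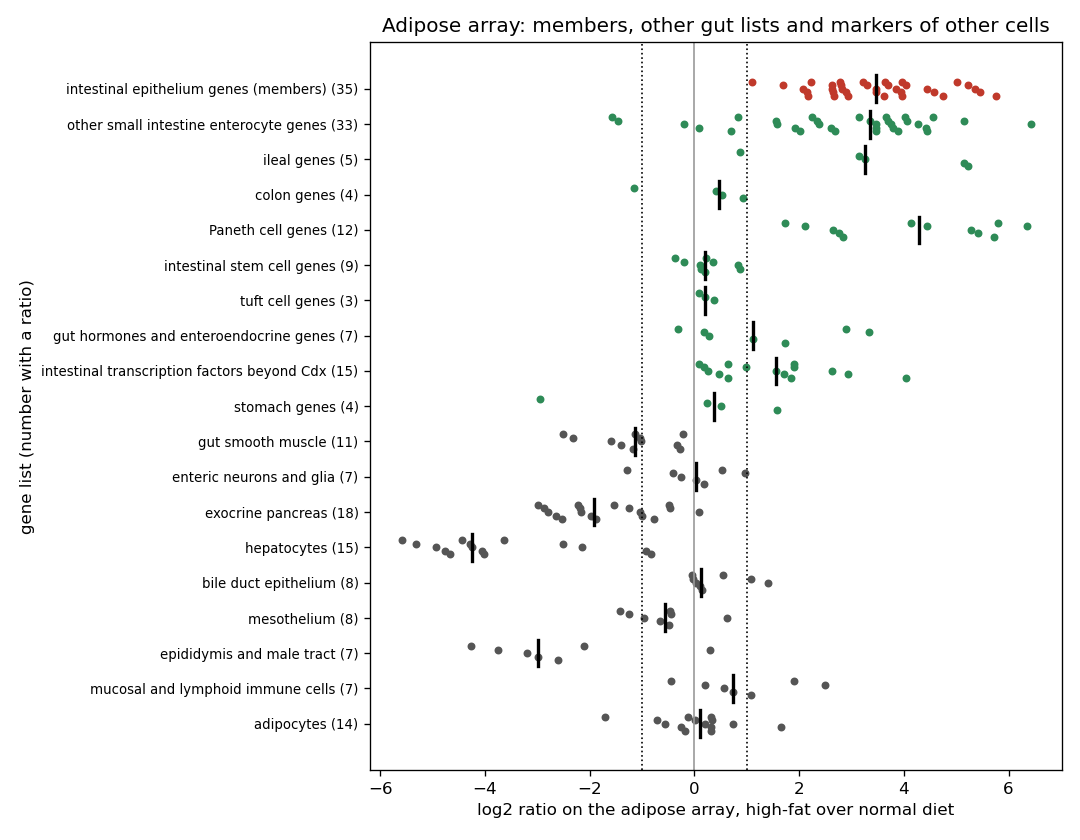
Log2 ratio on the adipose array (x axis, high-fat over normal diet) of each gene with a ratio, by list (rows, number of genes in brackets), for the intestinal epithelium genes (red), other gut lists (green) and markers of other cells (grey); black bars are medians and dotted lines 2-fold. The medians are 3.46 for the red row, 3.35 for other enterocyte genes and 4.29 for Paneth cell genes, against -1.13 for the smooth muscle genes and -1.92 for exocrine pancreas.

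Markers of cells that lie beside the epithelium or beside fat were read on the same array. Smooth muscle genes, which the gut wall uses but vessels and other muscular walls use as well, did not share the members' direction: of 11 with a ratio, none was higher and 8 were lower (median -1.13), with median levels over the 12 genes of 10.80 in the high-fat pool and 11.72 in the normal-diet pool. Pcp4 was at -2.50, Cnn1, calponin, at -2.32 and Actg2, enteric actin, at -1.59. Of 7 genes of enteric neurons and glia, none was higher (median 0.03), with Ret, a receptor of enteric neurons, at 0.96. Of 18 exocrine pancreas genes, 14 were lower and none higher (median -1.92), with median levels of 8.0 in the high-fat pool and 9.61 in the normal-diet pool, and with Try4, a trypsin, at -2.98. Spink1, at 5.01, went the opposite way from that list.

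Hepatocyte and male tract genes were also mostly lower in the high-fat adipose pool. Of 15 hepatocyte genes, 13 were lower and none higher (median -4.24), with median levels of 7.52 in the high-fat pool and 12.26 in the normal-diet pool. Of 7 epididymis and male tract genes, 6 were lower (median -2.98), with the sperm protein genes Tnp2 at -4.27 and Prm2 at -3.76, and 2 more were above background only in the normal-diet channel. Of 8 mesothelial genes, 2 were lower (median -0.56). Bile duct genes had a median of 0.13 over 8, with St14, an epithelial protease, at 1.41 and Anxa13, an annexin that the gut makes as well, at 1.08 called higher. Of 7 mucosal and lymphoid immune genes, 3 were higher (median 0.74): the gut chemokine Ccl25 at 2.49, the immunoglobulin joining chain Jchain at 1.91 and the epithelial immunoglobulin receptor Pigr at 1.09. The 14 adipocyte genes had a median of 0.11, with 1 higher, leptin (Lep) at 1.66, and 1 lower, adipsin (Cfd) at -1.70. No list was below background in both pools throughout, and the part of these cells in the members' ratios was not tested.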

How the data were processed

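Each array held 44397 spots, of which 1377 were control spots. The deposited scanner files give each spot's median intensity and local background per channel, not normalized, and a log10 ratio of red over green that the scanner software had background-subtracted and dye-normalized, per the file headers. Those headers give Agilent Feature Extraction 11.5.1.1 with protocol GE2_1105_Oct12; version 8.5.1.1 stands in the submitters' processing notes. The direction of the ratios follows from the dyes in the labels.

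Where the software flags a local background as an outlier, that channel's array-wide median took its place (red 1480 and green 406 in adipose tissue, red 1602 and green 665 in liver). Correction by normexp with an offset of 50 (limma 3.58.1, R 4.3.3) was followed by loess with control spots at weight 0, and by Aquantile for levels. Spots marked as outliers (213 in adipose tissue, 184 in liver) were left out, and no spot was saturated. Probes, 39427 in adipose tissue and 39418 in liver, were named through their transcript accessions with RefSeq, and 27507 matched 1 gene. A gene's ratio is the mean of its measured probes, and the signal and level given for a single gene with a ratio are those of the same probes. The median levels of gene lists, and the levels of Cubn so marked, are taken over all probes of each gene, measured or not. The arrays' annotation is of an older build (mm9) than the promoter windows. The procedure was tested on simulated data, in which only brighter probes were changed, and by less than the largest ratios here. That test therefore does not cover dim signals or the largest ratios.

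The members, classes, gene lists and thresholds were chosen with earlier results of these data known. Every member is reported; of each list, the counts, the median and up to 3 genes with the largest ratios in either direction are given, and Fabp1, Apoc3, Dgat1, Slc2a2, Slc46a1 and Cyp2b10 were named after their values were seen. A result that this rule takes is not reported here. Alternatives tried were an offset of 10, no background subtraction, the scanner's own log ratio, all local backgrounds as deposited, median centring, 2 other filters on dim probes, the brightest probe per gene, a call rule using the scanner error and another scaling of levels.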

Additional observations from a re-analysis of the deposited data

How the results depend on the processing

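The number of members at least 2-fold higher in adipose tissue was 35 with the scanner's log ratio, without background subtraction, with an offset of 10, with all local backgrounds as deposited, with median centring, with the brightest probe per gene and with the scanner error added to the call rule. It was 38 when 1 channel above background sufficed and with no filter on dim probes, where Reg4 remained under 2-fold. No member was 2-fold lower under any of these. All 280 single adipose ratios recomputed under alternatives kept their side of the threshold. Median centring shifted the median of all genes to 0.69 in adipose tissue and 0.32 in liver (4208 genes higher and 616 lower in adipose tissue, 445 and 28 in liver), and with it the adipose medians: 4.37 for all members, 3.69 for brush border genes, 4.63 for other enterocyte genes, 4.58 for the Cdx factors, 5.12 for goblet genes, 2.20 for enteroendocrine genes and 3.62 for general epithelial genes. With the software's log ratio, which had 901 genes higher and 1230 lower in adipose tissue and 138 and 157 in liver, the medians were 3.49 for brush border genes, 4.75 for the Cdx factors and 2.91 for enteroendocrine genes, beside 4.21 for goblet genes and 2.87 for general epithelial genes. An offset of 10 gave 4.29 for the Cdx factors, 4.12 for goblet genes and 2.10 for enteroendocrine genes, so the order of the classes by median depends on the processing, and both looser filters gave 1.10 for enteroendocrine genes. In liver, 6 members were at least 2-fold higher with the scanner's own log ratio and 1 with all local backgrounds as deposited, a setting with 20 genes higher and 35 lower in all. Guca2b passed 2-fold in liver with an offset of 10 (1.04). Signals close to background limit the Cdx, enteroendocrine and most liver values. They also limit the adipose ratios of Sis, Lct, Epcam, Alpi, Cdh17 and Agr2, whose normal-diet signals were 108 to 137. No paired analysis was possible because each tissue has 1 array.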

Other observations

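Some gut genes outside the set were also read in liver. Reg3b, highest of the Paneth cell list in adipose tissue, had a liver ratio of 1.35, and it was the 1 Paneth cell gene of 4 with a liver ratio that was at least 2-fold higher. Among 24 other enterocyte genes with a liver ratio none was higher and 1 was lower, with a median of 0.19, and Fabp2 stood at 0.57. Of 8 stem cell genes, Rnf43, which restrains WNT signalling, was higher in liver (1.12), and it was at 0.83 in adipose tissue. These are values of 1 array each.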
